A study of Rattus norvegicus with 28 samples.

Results

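INS-1 cells, a rat insulinoma line used as a model of the pancreatic beta cell, were compared at rest and after 1 h of exendin-4 (Ex-4), a peptide agonist of the glucagon-like peptide 1 (GLP-1) receptor. The members are 4 of the 28 RNA-seq libraries of the series, chosen by their labels: 2 untreated WT libraries (CON) and 2 WT libraries given 10 nM Ex-4 for 1 h. All cells, controls included, had been washed and moved to serum-free medium before treatment. The other groups used here were WT cells given Ex-4 for 8 or 16 h, WT cells given 10 µM forskolin (FSK, a direct activator of adenylyl cyclase) for 1 h, and Med14 S983A cells, in which a serine of the Mediator subunit Med14 was replaced by alanine, at CON and after 1 h of 10 nM Ex-4. The Med14 S983A cells came from single cells sorted after genome editing and genotyped as clones. The study's methods speak of a pair of independent knock-in lines, but the labels do not say which line a library came from, so that line and genotype cannot be told apart here. Each group had 2 libraries, which the study's methods treat as biological replicates. The labels do not say whether they came from separate cultures, so the p-values measure only the spread between these libraries, which may be in part technical. In bulk RNA, fewer cells with a transcript and less of it per cell cannot be told apart.

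GLP-1 receptor agonists raise cyclic AMP (cAMP) in beta cells through the stimulatory G protein and adenylyl cyclase. Protein kinase A then phosphorylates the transcription factor CREB, and CREB with its CRTC coactivators drives genes whose promoters hold a cAMP response element (CRE), the palindrome TGACGTCA or a part of it. Many of these early genes encode transcription factors, AP-1 and NR4A proteins among them, or proteins that dampen cAMP and MAP kinase signalling. In beta cells the pathway is known for potentiating insulin release and for sustaining Irs2, which links insulin and IGF-1 receptors to survival signalling.

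The 4 libraries held 42183630 to 54796204 recovered gene fragments, ERCC spike-ins made up 0.864 to 0.953% of gene fragments and ERCC counts together, and the replicates correlated at 0.999 in both groups. The beta cell label was borne out by 9 measured markers, each above 1 TPM, whose summed level was 51360 to 52287 TPM at CON and 53536 to 55055 TPM after 1 h. All markers of delta, PP, duct, fibroblast, endothelial and immune cells that the table holds were under 1 TPM in the 4 libraries. Of the alpha cell markers, Gcg, the glucagon gene, was at 165 and 169 TPM at CON and 178 and 184 TPM after 1 h, while Irx2 and Ttr were under 1 TPM. Of 7 acinar markers 5 were under 1 TPM, and the summed level of the 7 was 13.1 to 14.9 TPM at CON and 17.1 to 18.3 TPM after 1 h, whose part in the results was not tested. Med14 itself stood at 21.5 and 20.3 TPM at CON and 21.86 and 21.995 TPM after 1 h.

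Within 1 h of Ex-4, few genes changed by more than 1.5-fold, and among these the rises were far larger than the falls. A gene is called here when its limma adjusted p is under 0.05 and its change exceeds 1.5-fold on the log2(TPM + 1) scale, which understates the change of low genes. By that rule 1.75% of the 10275 genes tested were higher and 1.12% were lower, 2.87% in all. These shares are the background for every count of called list members below. Of the 180 higher genes, 115 exceeded 2-fold, 44 exceeded 4-fold and 15 exceeded 8-fold. Of the 115 lower genes, 7 exceeded 2-fold and Txnip alone exceeded 4-fold. The CON and Ex-4 libraries did not overlap for any called gene. The call itself favours this, and the share over all tested genes was not counted, so it adds no support. Of the higher genes, 25 had a CON mean under 1 TPM. These passed the filter, a mean of at least 1 TPM over all 28 libraries, through other groups, which favours low genes that rise. Rises were also the firmer calls, since 176 of 180 were called under all 6 other scalings and count models, against 70 of 115 falls, and no called gene changed sign under any of the 6. Centring each library on its median moved the split to 208 rises and 71 falls. Without the fold minimum, 524 genes were higher and 2068 lower, so that small falls were then the more numerous.

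**Figure D1:**
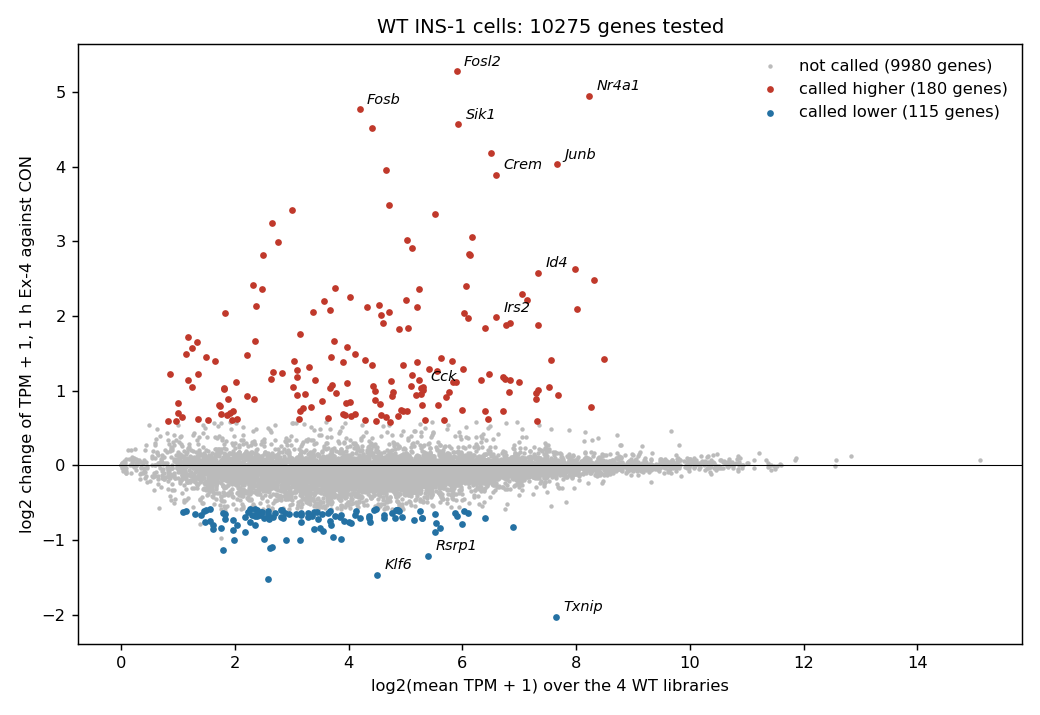
Log2 change of TPM + 1 after 1 h of Ex-4 against CON (y axis) by mean level over the 4 WT libraries (x axis, log2(mean TPM + 1)), 1 point per tested gene. The 180 genes called higher reach a log2 change of 5.28 (Fosl2), whereas the 115 called lower reach -2.02 (Txnip), and 7 of them lie beyond 2-fold.

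**Figure D2:**
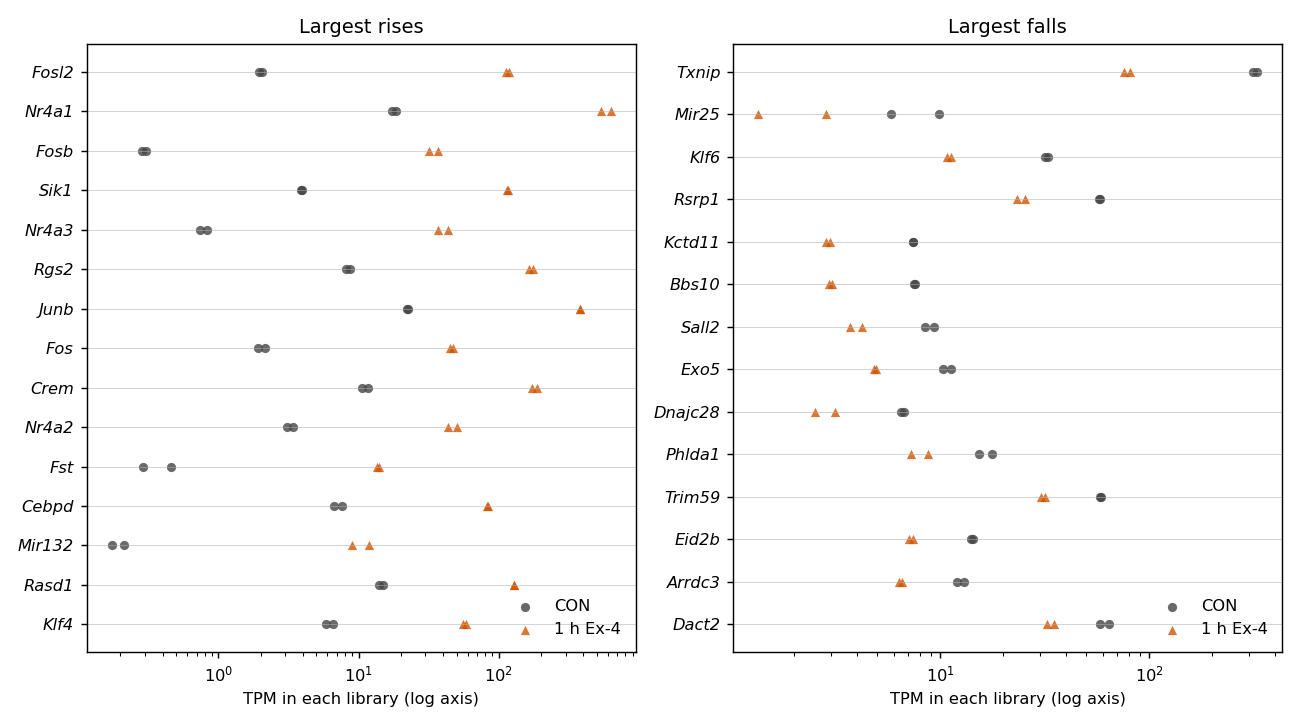
TPM in each of the 4 WT libraries (log axis) for the largest rises and falls among called genes with at least 5 TPM in the higher group. Circles are CON and triangles 1 h Ex-4, and the 2 groups are apart in each row, most widely for Fosb and least for falls such as Dact2.

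AP-1 genes encode the FOS and JUN proteins, which bind DNA as dimers. All 7 members were called higher, also under each of the 6 other scalings and count models, with a median log2 change of 3.96, where the median over all tested genes was -0.06. Fosl2 (rn6 chr6:25598936-25616995, minus strand) stood at 2.05 and 1.95 TPM in the CON libraries and at 112 and 119 TPM after 1 h. Fosb rose from 0.306 and 0.283 TPM to 31.8 and 36.8 TPM, and its log2 change was 4.77 (SE 0.0841, limma adjusted p = 1.4e-23). That change rests on 47 and 53 reads at CON against 5700 and 7482 after Ex-4. The lowest member was Fosl1, with 0 and 10 reads at CON and 189 and 300 after 1 h, so that it reached only 2.07 and 2.89 TPM. The JUN side was graded. Junb rose from 22.4 and 22.1 TPM to 380.4 and 379.8 TPM, Jund from 96.1 and 108 TPM to 258 and 286 TPM, and Jun only from 8.25 and 8.18 TPM to 17.3 and 16.9 TPM (log2 change 0.97, SE 0.0644, limma adjusted p = 9.2e-12). Jund was thus the AP-1 gene with the highest level at CON, and Junb the one with the highest level after Ex-4.

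The NR4A nuclear receptors, which act without a known ligand, rose with them. Nr4a1 (rn6 chr7:142912309-142920215, plus strand) went from 17.3 and 18.4 TPM to 532 and 632 TPM, the highest level reached by any of the 15 largest rises. Nr4a3 went from 0.824 and 0.738 TPM to 36.6 and 43.2 TPM, and Nr4a2 from 3.43 and 3.08 TPM to 43.4 and 50.5 TPM. Their log2 changes were 4.95, 4.52 and 3.49. In a list of 22 tested early transcription factor genes that includes the NR4A genes, 14 were higher and 4 lower, with a median log2 change of 2.09. The 4 lower genes were Ier5, Myc, Klf6 and Klf10, and the 4 not called were Ier5l, Arc, Srf and Klf2. Egr1, a zinc finger factor of the serum and growth factor response, rose from 7.49 and 6.75 TPM to 58.0 and 62.2 TPM, and Egr4 from 0.344 and 0.452 TPM to 8.77 and 8.94 TPM. By contrast Srf, the serum response factor, had a log2 change of 0.10 (adjusted p = 0.133), and Arc one of 0.46, below the 1.5-fold threshold.

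Among genes of CREB and its coactivators, Crem was the only one of 6 tested that was called. Crem (rn6 chr17:57074525-57090888, plus strand), whose internal promoter gives the short repressor ICER, rose from 11.7 and 10.6 TPM to 172 and 186 TPM. Creb1, Atf1, Crtc1, Crtc2 and Crebbp were not called, and Creb1 stood at 6.04 and 6.08 TPM at CON and 5.99 and 4.85 TPM after 1 h. The C/EBP genes, basic leucine zipper factors that share sites with CREB-like proteins, were looked at after their values were seen: Cebpd and Cebpb were higher and the other 4 tested were not called. Cebpd rose from 7.62 and 6.70 TPM to 82.3 and 83.5 TPM, and Cebpb from 3.90 and 5.38 TPM to 22.7 and 29.0 TPM. Klf4 rose from 6.58 and 5.82 TPM to 55.9 and 58.1 TPM, against falls of its relatives Klf6 and Klf10 described further on, so the 13 tested Kruppel-like genes split into 1 higher, 2 lower and 10 not called.

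RefSeq promoters (build GRCr8) were searched for the full CRE, TGACGTCA, which reads the same on both strands, in the 250 bases before each start. Of the 84 genes named here by rule, 60 had a promoter entry and 8 of these held the CRE. All 8 were called higher, as were 46 of the 60, since the naming rule favours called genes. The CRE was found in 1.59% of all 33469 promoter entries. A gene was counted when any of its entries held the letters, so gene counts and shares of entries have unlike units. Only 72.8% of the called higher and 70.4% of the called lower genes had an entry under their symbol, below the 80% required, so no share over the called genes is given. The stretches are printed because they are the elements through which CREB is known to act, with the CRE in capitals within 60 bases, 5′ to 3′ on the strand of the gene. The number before the start is counted to the first base of the CRE.

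Crem, alternative start, 56 bases before it, chr17:58984715-58984774 (+): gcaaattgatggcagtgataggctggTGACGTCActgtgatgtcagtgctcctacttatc
Crem, further start, 35 bases before it, chr17:58985429-58985488 (+): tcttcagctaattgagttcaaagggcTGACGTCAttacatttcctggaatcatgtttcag
Maff, 51 bases before the start, chr7:112792710-112792769 (+): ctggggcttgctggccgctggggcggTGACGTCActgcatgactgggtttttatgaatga
Ier2, 66 bases before the start, chr19:40399281-40399340 (+): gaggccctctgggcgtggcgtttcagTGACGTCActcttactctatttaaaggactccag
Dusp1, 124 bases before the start, chr10:17184703-17184762 (+): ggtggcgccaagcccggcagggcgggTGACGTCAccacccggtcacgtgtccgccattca
Cartpt, 142 bases before the start, chr2:32991344-32991403 (-): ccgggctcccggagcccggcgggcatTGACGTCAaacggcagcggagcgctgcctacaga
Ppargc1a, 181 bases before the start, chr14:63634101-63634160 (+): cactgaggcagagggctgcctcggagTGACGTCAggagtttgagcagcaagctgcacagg
Btg2, 201 bases before the start, chr13:48087858-48087917 (-): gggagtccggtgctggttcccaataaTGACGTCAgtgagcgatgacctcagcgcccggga
Jund, 221 bases before the start, chr16:18769959-18770018 (-): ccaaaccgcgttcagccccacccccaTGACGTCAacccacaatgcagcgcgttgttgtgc

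These 8 genes covered a wide range of responses. Log2 changes were 3.89 for Crem, 2.82 for Dusp1, 2.37 for Maff, 2.09 for Btg2, 2.01 for Cartpt, 1.41 for Jund, 1.32 for Ier2 and 1.15 for Ppargc1a. Maff encodes a small MAF factor and Btg2 an antiproliferative protein that promotes mRNA deadenylation. Btg2 was abundant already at CON, at 100.2 and 94.2 TPM, and reached 409 and 425 TPM. A shorter form of the element, TGACG or its reverse complement CGTCA, overlaps the full CRE. It occurred for 28 of the 60 genes and in 18.2% of all entries. The AP-1 site TGAGTCA, or TGACTCA on the other strand, occurred for 0 of the 60 genes and in 4.05% of all entries. This says only that these letters are not in these windows.

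Genes that dampen G protein and kinase signalling formed the next group. Sik1, a salt-inducible kinase that keeps CRTC coactivators in the cytoplasm, rose from 3.91 and 3.93 TPM to 116 and 115 TPM, whereas its relative Sik3 had a log2 change of -0.04 (adjusted p = 0.662). Rgs2, which speeds GTP hydrolysis by Gq-type and other G proteins, rose from 8.74 and 8.08 TPM to 165 and 176 TPM, and Rgs16 from 122 and 117 TPM to 254 and 241 TPM. These were the only called genes among 18 tested RGS, GRK and arrestin genes. Dusp1, a phosphatase of MAP kinases, rose from 16.6 and 16.5 TPM to 126 and 119 TPM. Of 14 tested MAP kinase feedback genes, Dusp1, Dusp4, Dusp5, Dusp8, Dusp10 and Spry1 were higher, Dusp7 was lower and 7 were not called. The Dusp7 call, from 14.8 and 13.6 TPM to 8.83 and 8.65 TPM, did not hold after median-centring (log2 change -0.57) or without CON replicate 1 (-0.58).

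Genes of the upstream machinery were looked at next. None of 9 genes of protein kinase A subunits and inhibitors was called in either direction. Nor was any of 10 tested genes of incretin receptors, G protein and adenylyl cyclases. With 2.87% of all tested genes called, lists this short do not set the machinery apart. Glp1r, the receptor of Ex-4, stood at 95.4 and 89.8 TPM at CON and 85.3 and 84.5 TPM after 1 h. The GIP receptor gene Gipr was at 71.0 and 72.5 TPM and then at 49.999 and 46.8 TPM, with a log2 change at -0.56 (SE 0.123, limma adjusted p = 0.00125), just short of the 1.5-fold threshold. Of 18 tested phosphodiesterase genes, whose enzymes break down cyclic nucleotides, Pde4d alone was called, from 11.3 and 10.2 TPM to 17.9 and 17.7 TPM. Pde10a stood at 14.6 and 12.9 TPM at CON and 13.98 and 14.3 TPM after 1 h (log2 change 0.04, limma adjusted p = 0.771), and at 40.9 and 37.0 TPM after 8 h.

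Further signalling genes were grouped after their values were seen. The RAS-like GTPases Gem and Rem2, which inhibit voltage-gated calcium channels, and Rasd1 and Diras2 were higher among 6 tested members of their families. Rasd1 rose from 13.9 and 14.95 TPM to 128 TPM in both Ex-4 libraries, Diras2 from 49.6 and 47.7 TPM to 231 and 228 TPM, and Gem from 11.5 and 10.8 TPM to 56.2 and 67.5 TPM. Gpr3 and Gpr6, receptors that signal through the stimulatory G protein without added ligand, were both higher, Gpr3 from 0.131 and 0.287 TPM to 3.14 and 2.47 TPM and Gpr6 from 37.6 and 35.3 TPM to 92.7 and 88.98 TPM. Sstr1, a somatostatin receptor, rose from 3.30 and 3.19 TPM to 17.99 and 19.1 TPM. Of 8 PIM and polo-like kinase genes, Pim1, Pim3, Plk2 and Plk3 were higher, and of 5 BTG and TOB genes, Btg1, Btg2 and Tob1 were. The GADD45 genes moved apart, with Gadd45b higher (11.025 and 13.1 TPM to 46.6 and 43.9 TPM) and Gadd45a lower (80.6 and 84.5 TPM to 54.96 and 50.7 TPM), the second call being kept by 3 of 6 other scalings and count models. The counts called in these families are 33.3% to 100% of their tested members, beside 1.75% of all genes higher, but the families were picked for having called members. The 100% is that of Gpr3 and Gpr6, with Gpr12 too low to test. Gpr3, under 1 TPM at CON, passed the filter on the mean over all 28 libraries only through other groups, so these shares carry no weight.

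Irs2 was the sole gene called among 20 tested genes of insulin and IGF signalling. Irs2 (rn6 chr16:83824515-83848569, plus strand) rose from 39.2 and 36.8 TPM to 150 and 157 TPM, which is 1.99 on the log2 scale (SE 0.0538, limma adjusted p = 4.5e-20). None of 21 insulin, granule and glucose sensing genes was called, and Ins1 stood at 34501 and 33716 TPM at CON and 36571 and 34917 TPM after 1 h. Among beta cell transcription factor genes, Nkx2-2 and Neurod1 came near the 1.5-fold threshold without passing it: Nkx2-2 went from 93.0 and 80.7 TPM to 129 and 128 TPM (log2 change 0.56, limma adjusted p = 1.0e-08) and Neurod1 from 234 and 214 TPM to 153 and 152 TPM (-0.55, adjusted p = 6.8e-09). In contrast to Neurod1, other neural bHLH genes, looked at after their values were seen, were higher, Neurod2 from 53.7 and 50.3 TPM to 127 and 120 TPM and Neurod4 from 3.32 and 3.75 TPM to 11.1 and 10.8 TPM.

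The ID genes, whose proteins lack a basic region and hold bHLH factors off DNA, were all 4 called higher. Id4 went from 42.2 and 47.9 TPM to 268 and 281 TPM, the largest change of the 4 (log2 change 2.58, SE 0.0621, limma adjusted p = 4.3e-21). Id1, Id2 and Id3 had log2 changes of 1.15, 0.83 and 1.21. The 3 tested HES and HEY genes were not called. Of 15 tested circadian clock genes, Per1, Cry2, Nfil3 and Ciart were higher, all 4 encoding repressors of transcription. Per1 rose from 21.4 and 19.04 TPM to 110 and 113 TPM, Cry2 from 46.4 and 44.5 TPM to 165 and 175 TPM and Nfil3 from 16.6 and 15.6 TPM to 118 and 123 TPM. Per2, Cry1, Arntl and Clock were not called, and Nr1d1 had a log2 change of -0.51, below the 1.5-fold threshold.

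Secreted products made up a further group. Of 7 tested neuropeptide and hormone genes, Cck, Cartpt, Tac1 and Stc1 were higher, 13 others of the list being too low to test. Cartpt, which encodes the CART peptide, rose from 7.71 and 9.07 TPM to 36.8 and 36.7 TPM, Tac1, the substance P precursor, from 8.40 and 7.62 TPM to 22.5 and 26.4 TPM, and Cck from 24.1 and 25.5 TPM to 53.0 and 52.2 TPM. Fst, the gene of the activin antagonist follistatin, rose from 0.289 and 0.458 TPM to 13.5 and 13.9 TPM, on 30 and 58 reads at CON and 1627 and 1910 after 1 h. Of 15 tested growth factor genes, Hbegf, Vegfa, Gdf15, Bmp2 and Lif were higher. Hbegf, which encodes an EGF receptor ligand, rose from 44.3 and 42.5 TPM to 217 and 218 TPM, and Vegfa from 224 and 222 TPM to 388 and 381 TPM.

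The next 4 lists held at most 1 called gene each. With 1.75% of all tested genes called higher, such counts do not show a lack of called genes. Ppargc1a, the coactivator PGC-1α, was the only one of 9 tested fasting and PGC-1 genes, rising from 3.29 and 2.46 TPM to 7.83 and 7.27 TPM. Insig1, which holds the SREBP processing complex in the endoplasmic reticulum, was the only one of 23 cholesterol synthesis genes, from 67.7 and 67.9 TPM to 102 and 109 TPM, and its call did not hold without Ex-4 replicate 2 (log2 change 0.58). None of 23 endoplasmic reticulum folding genes was called. Ccn2 was the only one of 9 tested YAP/TAZ and serum response targets, from 0.399 and 0.364 TPM to 4.90 and 4.47 TPM. The median log2 changes of these 4 lists lay between -0.04 and 0.10, and those of the fasting and cholesterol lists changed sign with the scaling.

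Rows for microRNA hairpins were also in the table, read from few fragments of the primary transcript or its host and not from the mature microRNA. Of 49 tested, grouped after their values were seen, Mir132, Mir212 and Mir22 were higher and Mir25, Mir27b and Mir331 lower. Each direction held 6.12% of these rows, beside 1.75% of all tested genes higher and 1.12% lower. Mir132 (rn6 chr10:62014995-62015095, plus strand) had 1 read in each CON library against 65 and 56 after 1 h, a ratio of 54.8 by library total with an exact 95% counting interval of 14.9 to 458. Mir212, its neighbour on the same strand (rn6 chr10:62014702-62014812), had 2 and 0 reads against 13 and 20, a ratio of 14.9 with an interval of 3.82 to 129. Both mates of a fragment count as reads, so these intervals cover counting error only and are too narrow. Mir25, in contrast, had 39 and 28 reads at CON and 13 and 7 after 1 h. Mir22, Mir27b and Mir331 were called by only 2, 2 and 1 of the 6 other scalings and count models. The mature sequences in RefSeq (GRCr8) are printed with the seed, bases 2 to 8, in capitals, because those of the neighbours that rose share a seed, which Mir25 does not.

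rno-miR-132-3p: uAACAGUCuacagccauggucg
rno-miR-212-3p: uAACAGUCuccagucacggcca
rno-miR-25-3p: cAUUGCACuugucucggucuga

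Txnip showed the largest fall. Txnip (rn6 chr2:198683168-198686968, plus strand), which encodes an arrestin-domain protein that binds thioredoxin and restrains glucose uptake, fell from 329 and 312 TPM to 80.8 and 75.4 TPM, and fell by 2.02 on the log2 scale (SE 0.0843, limma adjusted p = 5.0e-16). Arrdc3 was the other called member of 6 tested Txnip and arrestin-domain genes, from 12.9 and 12.1 TPM to 6.598 and 6.38 TPM. Klf6 fell from 31.6 and 32.8 TPM to 11.2 and 10.8 TPM, and Klf10, a TGF-beta-induced factor, from 81.2 and 77.6 TPM to 48.2 and 43.2 TPM. Rsrp1 fell from 57.8 and 57.4 TPM to 25.3 and 23.4 TPM. The remaining largest falls, Kctd11, Bbs10, Sall2, Exo5, Dnajc28, Phlda1, Trim59, Eid2b and Dact2, had log2 changes of -1.10 to -0.85 with CON levels of 6.47 to 64.3 TPM.

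Smaller falls included several growth and stress genes. Myc went from 69.4 and 70.5 TPM to 45.5 and 43.8 TPM, a log2 change of -0.64 that missed the 1.5-fold threshold after median-centring (-0.56), with edgeR (-0.58) and with DESeq2 (-0.56). Mycn was at 2.28 and 2.19 TPM and then at 1.04 and 1.02 TPM, Casp2 at 49.2 and 45.6 TPM and then at 29.2 and 28.1 TPM, and Ogt, the O-GlcNAc transferase, at 33.5 and 33.9 TPM and then at 19.98 and 20.7 TPM. Genes with Zfp symbols, zinc finger genes grouped after their values were seen, numbered 151 tested, of which 11 (7.28%) were lower and 2 (1.32%) higher, beside 1.12% and 1.75% of all genes. Their median log2 change was -0.23, where that of all tested genes was -0.06. The number of lower Zfp genes ranged from 7 to 23 over the 6 other scalings and count models, and the median from -0.25 to -0.15.

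Called genes had shorter median spans and lower median levels than all tested genes. The median span from first to last base was 6960 bases for higher genes and 8916 bases for lower genes, against 20782 bases for all tested genes, with median exon lengths of 1970, 2162 and 2142 bases. Genes annotated in a single exon made up 13.9% of higher genes (25 of 180), 10.4% of lower genes (12 of 115) and 2.69% of all tested genes (276 of 10275). Median CON levels were 10.3, 10.8 and 30.0 TPM. These medians are descriptions, and their relation to the fold threshold on a log scale was not tested.

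The WT time course placed these genes in order. Libraries at 8 and 16 h of Ex-4 share the CON libraries with the 1 h comparison. The labels give CON no hour, so hours of Ex-4 and time in serum-free medium cannot be told apart. The genes were chosen for a difference at 1 h, which favours an extreme at 1 h. Means peaked at 1 h for 149 of the 180 higher genes, at 8 h for 26 and at 16 h for 5, and the median log2 change against CON went from 1.15 at 1 h to 0.58 by 8 h and 0.18 by 16 h. Junb was back at 30.9 and 26.96 TPM by 8 h, and Nr4a2 at 4.005 and 4.43 TPM. Irs2 declined more slowly, at 91.5 and 93.0 TPM at 8 h and 64.7 and 71.3 TPM at 16 h. The 31 genes with a later maximum included secreted products. By 8 h Cck had reached 236 and 242 TPM and Stc1 82.1 and 87.0 TPM. Cartpt held 71.1 and 69.3 TPM at 8 h and 71.0 and 71.2 TPM at 16 h. Plat, the tissue plasminogen activator gene, had means of 17.3 TPM at 8 h and 6.0015 TPM at 16 h against 2.06 and 2.14 TPM at 1 h. The genes with a mean highest at 16 h were Cartpt, Gdf15, Insig1, Trib3 and Wnt4.

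Means bottomed at 1 h for 92 of the 115 lower genes, at 8 h for 10 and at 16 h for 13. Klf6 was at 27.7 and 28.1 TPM by 8 h, near its CON level, and Phlda1 at 18.3 and 21.025 TPM. Txnip went on to 47.3 and 44.955 TPM at 8 h and 33.1 and 32.8 TPM at 16 h.

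**Figure D3:**
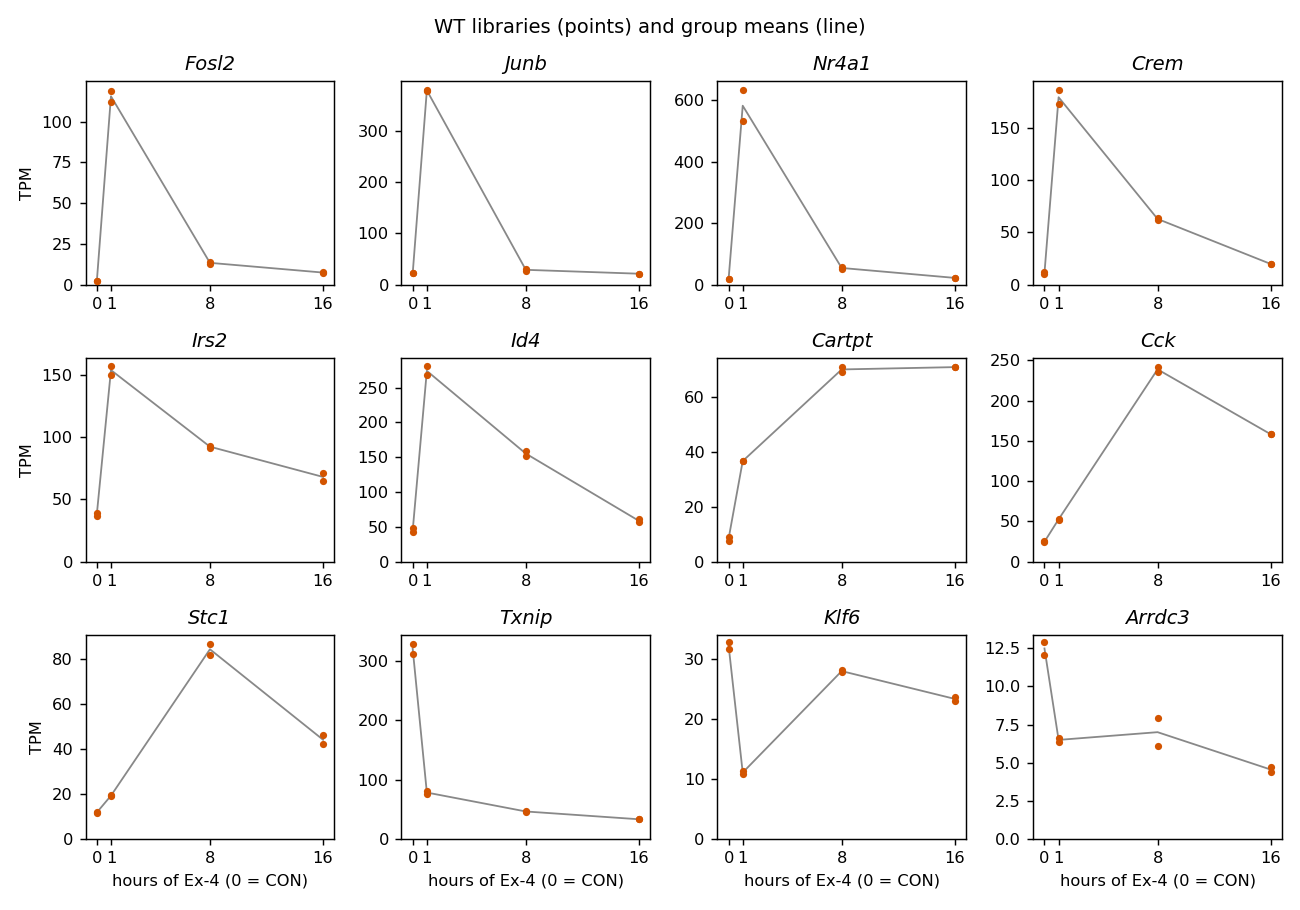
TPM (y axis, from 0) by hours of Ex-4 (x axis) for 12 genes in WT cells. Each point is a library and the line joins the group means. CON is set at 0, and the labels give it no hour. Fosl2, Junb, Nr4a1 and Crem peak at 1 h, Cck and Stc1 at 8 h, and Txnip falls through 16 h.

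The Med14 S983A cells gave the same treatment in other libraries, with no library shared. Rises were shared by 146 genes, which is 81.1% of the WT list and 69.9% of the Med14 S983A list (background 2.03% of all genes in Med14 S983A). Falls were shared by 53 genes, which is 46.1% of the WT list and 51.5% of the Med14 S983A list (background 1% of all genes). No gene was called in opposite directions. The median log2 change of the 180 genes was 1.15 in WT and 1.10 in Med14 S983A cells. That of the 115 lower genes was -0.69 in WT and -0.57 in Med14 S983A cells, the second just short of 1.5-fold. A fall not shared by this count is thus not a fall shown to be absent.

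The difference between the 2 responses was tested itself, and 0.672% of all genes passed, 0.341% with a higher and 0.331% with a lower value in Med14 S983A cells. Among the 180 higher genes, the rise was larger in Med14 S983A cells for 17 and smaller for 29, and these genes were chosen on their WT rise, which favours the second direction. Cebpd had the largest deficit. It stood at 7.48 and 7.98 TPM in Med14 S983A CON libraries and 17.8 and 21.6 TPM after 1 h, against 82.3 and 83.5 TPM in WT, a log2 difference of -2.12 (limma adjusted p = 1.2e-12). Prdm1, the gene of the repressor BLIMP-1, reached 7.20 and 7.64 TPM in WT and 0.776 and 0.587 TPM in Med14 S983A cells, where it also started lower. Its reads were 145 and 166 at CON and 2046 and 2462 after 1 h in WT. In Med14 S983A cells they were 38 and 46 at CON and 254 and 194 after 1 h, a rise that the TPM + 1 scale understates (log2 change 0.55). Sertad2 rose to 11.6 and 10.6 TPM in WT from 4.04 and 3.90 TPM, and stood at 3.60 and 3.86 TPM and then 4.13 and 3.44 TPM in Med14 S983A cells.

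The larger rises in Med14 S983A cells began for several genes from a lower CON level. Crem started at 5.48 and 3.97 TPM there and reached 232 and 228 TPM, a log2 difference of 1.46 (limma adjusted p = 5.1e-09). Id4 started at 17.2 and 16.4 TPM and reached 237 and 253 TPM, below the 268 and 281 TPM of WT. Hbegf started at 5.64 and 5.20 TPM and reached 59.8 and 65.3 TPM, against 217 and 218 TPM in WT, so its larger log2 rise went with a lower level. Among lower genes the difference was called for Myc, which fell further in Med14 S983A cells (55.5 and 56.5 TPM to 14.2 and 13.5 TPM), and for Dact2, Gadd45a and Ppp1r3c. Dact2 was at most at 0.106 TPM in the 4 Med14 S983A libraries, so that no fall could be measured there. The CON libraries of the genotypes also differed in Ins2, at 2885 and 2991 TPM in WT and 32620 and 37516 TPM in Med14 S983A, and the part of such differences between clones in the 1 h result was not tested.

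**Figure D4:**
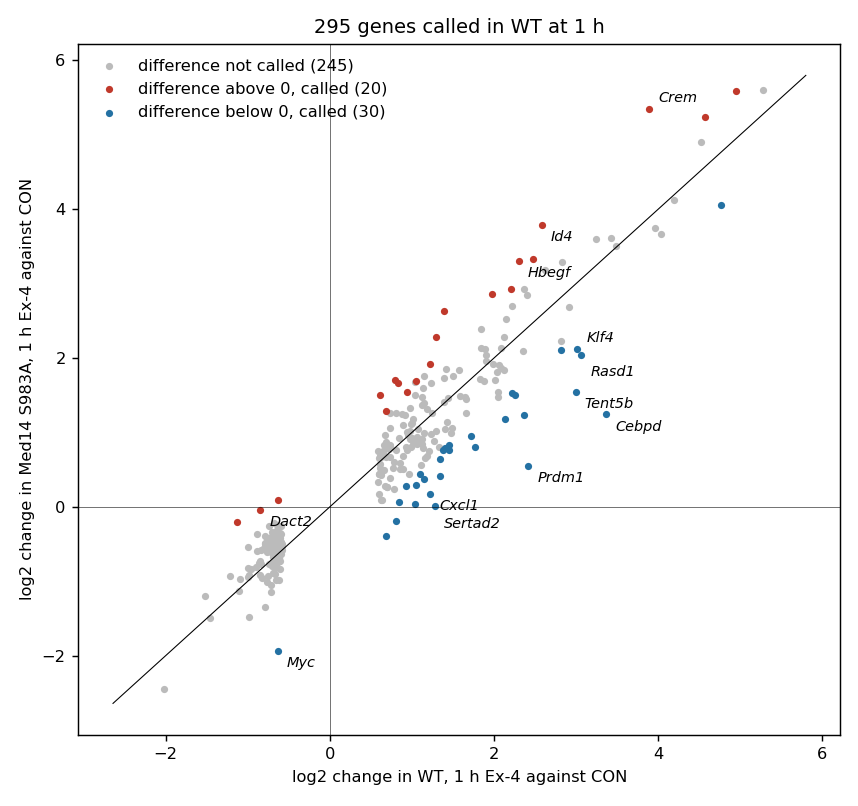
Log2 change of TPM + 1 after 1 h of Ex-4 in Med14 S983A cells (y axis) against that in WT cells (x axis) for the 295 genes called in WT, with the line of equal change. The difference was called above 0 for 20 genes (Crem and Id4 among them), below 0 for 30 (Cebpd and Prdm1 among them) and not called for 245.

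FSK at 1 h took 92 of the 180 higher genes to a higher level than Ex-4 did, in libraries compared with the same WT CON group. In the direct comparison of the treated groups, 0.652% of all genes were higher with Ex-4 and 1.14% lower, 1.79% in all. Of the 180 genes called higher after Ex-4, 0 were higher with Ex-4 than with FSK and 92 were lower, on Ex-4 libraries that also served to choose them. Of the 115 lower genes, 33 were higher with Ex-4 than with FSK and Sgk1 alone was lower. Junb was at 380.4 and 379.8 TPM with Ex-4 and 1398 and 1427 TPM with FSK, and Nr4a1 at 532 and 632 TPM and 1578 and 1671 TPM. Fosb was at 31.8 and 36.8 TPM with Ex-4 and 253 and 262 TPM with FSK, a log2 difference of -2.88 (limma adjusted p = 3.5e-18).

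The excess with FSK was not even across genes. Among the 180 genes, the largest differences were those of Cxcl1, a neutrophil chemokine gene at 2.62 and 2.53 TPM with Ex-4 and 31.4 and 31.1 TPM with FSK (log2 difference -3.17), and of Fosb, Lnc056, Klf4 and Fosl1. Irs2, by comparison, was at 150 and 157 TPM with Ex-4 and 196 and 190 TPM with FSK, a log2 difference of -0.33 that stayed under 1.5-fold. Cebpd, Crem and Sik1 had log2 differences of -0.39, -0.66 and -0.72. Ccn2 was at 4.90 and 4.47 TPM with Ex-4 and 4.997 and 4.50 TPM with FSK, a log2 difference of -0.02 (adjusted p = 0.961). Txnip was at 19.7 and 19.5 TPM with FSK, well below the 80.8 and 75.4 TPM with Ex-4 (log2 difference 1.94). Rsrp1 was at 25.3 and 23.4 TPM with Ex-4 and 27.8 and 21.5 TPM with FSK, overlapping ranges. The doses were 10 nM Ex-4 and 10 µM FSK, so that dose and agent cannot be told apart.

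**Figure D5:**
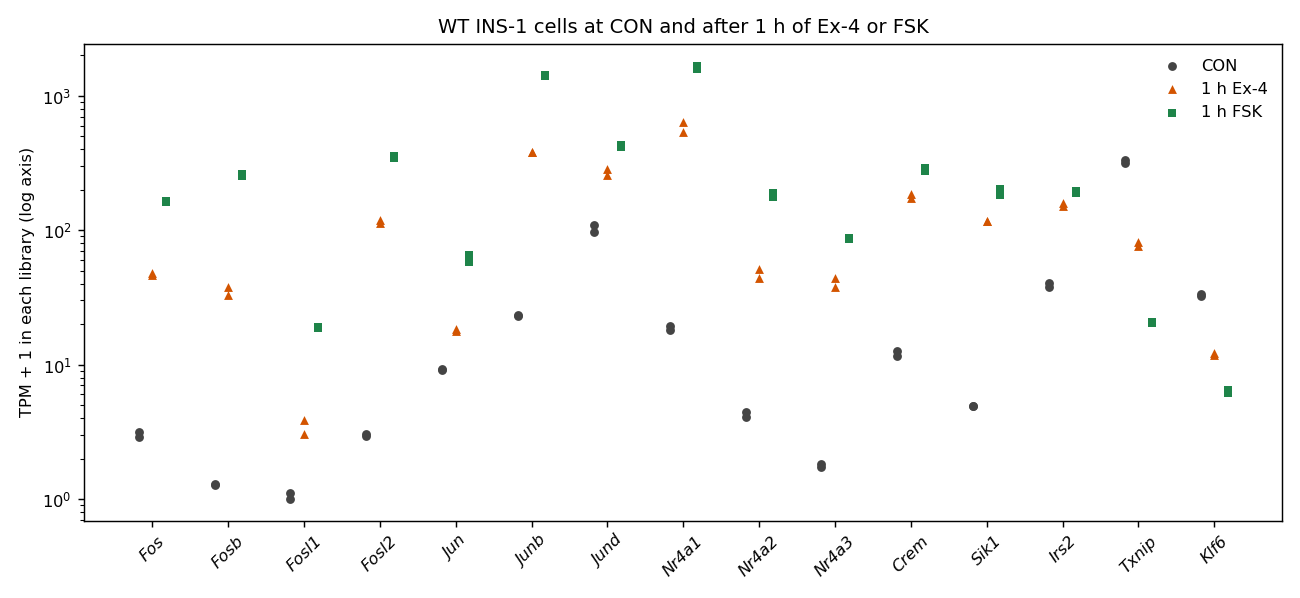
TPM + 1 in each WT library (log axis) at CON and after 1 h of Ex-4 or FSK for the AP-1 and NR4A genes, Crem, Sik1, Irs2, Txnip and Klf6. FSK libraries lie above Ex-4 libraries for the genes that rose and below them for Txnip and Klf6.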

How the data were processed

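Per the labels and the study's methods, total RNA was mixed with ERCC spike-ins and sequenced from strand-specific paired-end libraries, and reads were aligned to rn6 plus ERCC sequences with STAR 2.5.3a. The deposited gene values are TPM, which the authors made over RefSeq exons with HOMER 4.11.1 using the top-expressed isoform, and the deposited counts are the authors' counts of the 92 ERCC sequences. The study tested raw gene counts with DESeq2 1.24.0 and ERCC size factors. The gene values used here are TPM, so the nearest form, DESeq2 1.42.0 with ERCC size factors on fragments recovered from TPM, was an alternative. Library numbers in the table's columns differ from those in the labels, so columns were matched by genotype, treatment, hour and replicate, and 0 value columns stayed unmatched.

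For each symbol the transcript with the highest mean TPM was kept (17455 symbols), and tests covered the 10275 genes averaging 1 TPM or more across all 28 libraries. Log2(TPM + 1) values of all 28 libraries were fitted with limma 3.58.1 (14 group means, trend, 14 residual degrees of freedom, R 4.3.3), with two-sided p-values adjusted by Benjamini-Hochberg per contrast. Calls needed an adjusted p under 0.05 and over 1.5-fold. TPM multiplied by transcript length and scaled to the deposited ERCC counts gave back whole reads for 100% of 138979 values below 1000 reads, at a tolerance of 0.05 reads beyond rounding (23.0% by chance). These reads, paired into fragments, were used for edgeR 4.0.16 and DESeq2 1.42.0. In simulated counts for this comparison (10097 genes, 199 changed), limma recovered 99% of 2-fold and 100% of 3-fold changes with 4 wrong calls. The changed genes were drawn only from well-covered genes, and the same small dispersion was set for all genes. These figures therefore do not cover genes with few reads.

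Genes were named as the 15 largest rises and falls with at least 5 TPM, the genes the study singles out, called members of the lists, and the 5 largest differences each way between genotypes and agents. The members and lists were chosen with earlier results of these data known, and genes outside these rules are named after their values were seen. Alternatives were the pseudocount, filters, scaling, tool, libraries fitted, a replicate block, each library left out and the promoter window. Some genes that met these rules are not reported here.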

Additional observations from a re-analysis of the deposited data

Results flagged for a closer look

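For the following genes, the 1 h response to Ex-4 differed between Med14 S983A and WT cells in the test of the difference itself (limma, 4 libraries a side). Unless a count model is named, values are differences of log2(TPM + 1) changes, Med14 S983A minus WT. That scale understates rises of genes low in 1 genotype, such as Prdm1.

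The response was lower in Med14 S983A cells for Cebpd (-2.12), Prdm1 (-1.87), Tent5b (-1.46), Myc (-1.30), Sertad2 (-1.27), Rasd1 (-1.02) and Klf4 (-0.90). It was also lower for Dusp1 (-0.71), Dusp10 (-0.62) and Jund (-0.61), of which Jund lost its call under 4 of 20 alternatives. Less firm were Fosl1 (-0.77), Fosb (-0.71), Lif (-0.69), Spry1 (-0.62) and, with its low level, Cxcl1 (-1.05). No edgeR or DESeq2 fit called any of these less firm differences. The Fosl1 difference was 0.027 with DESeq2. Myc fell in both genotypes, so its lower value is a larger fall.

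The response was higher in Med14 S983A cells for Crem (1.46), Id4 (1.21), Hbegf (1.01), Slc26a2 (1.00) and Id2 (0.83). Smaller differences in that direction were those of Sik1 (0.68), Rgs16 (0.65), Nr4a1 (0.64) and Pde4d (0.61). Of these, Id2 lost its call under 7 of 20 alternatives. Dact2 (0.80), which the count models did not call, was at most at 0.106 TPM in the 4 Med14 S983A libraries.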

How the results depend on the processing

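The number of genes higher after 1 h of Ex-4 stayed within 1.5 times of 180 under every alternative but 1, since without a fold minimum it was 524. The number lower was less settled: 190 with a pseudocount of 0.1 TPM, 75 with a mean of at least 5 TPM, 71 after median-centring, 181 with edgeR on ERCC library sizes and 2068 without a fold minimum. Higher genes were 61.0% of the calls as reported, 74.6% after median-centring and 20.2% without a fold minimum. Without a fold minimum, 159 genes differed between the genotypes' responses and 1368 between Ex-4 and FSK, the latter 1029 above and 339 below FSK (75.2% above), which turns the balance of the 67 above and 117 below as reported (36.4% above). With a pseudocount of 0.1 TPM, the Ex-4 side was above the FSK side for 117 genes and below it for 129. Genes with the CRE in a promoter entry numbered 3 of 60 in a window of 100 bases. The causes were not tested. Leaving out each library in turn gave 176 to 187 higher genes, 102 to 152 lower genes, 59 to 76 genes that differed between the genotypes and 176 to 201 between the agents. A lone library was then assumed to vary like the other groups.

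Of 158 single-gene values refitted in 2749 combinations, 2667 kept direction and side of the threshold, 77 lost the call and 5 changed sign. The last were the genotype differences of Dact2 (-0.0048 with edgeR, -0.0088 with DESeq2, -0.0044 with DESeq2 on ERCC factors) and of Fosl1 (0.027 with DESeq2, 0.011 with DESeq2 on ERCC factors), each nearly absent in some libraries. The genotype difference lost its call under 14 of 19 alternatives for Lif, 12 of 20 for Spry1, 7 of 20 for Id2 and 6 of 20 for Fosb. It did so under 2 to 4 for Nr4a1, Sik1, Jund, Pde4d and Cxcl1.

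The replicate numbers were not treated as pairs. Deviations of same-numbered CON and 1 h libraries correlated at 0.136, itself above 0.1, and 17 of 91 pairs of groups exceeded 0.1 (range -0.280 to 0.283). This check cannot exclude pairing. With a replicate block, 180 genes were higher and 115 lower, 67 differed between the genotypes against 69 without it (the call of Lif was lost, adjusted p = 0.0564 by limma), and 184 between the agents. Low genes are limited by depth, with single reads behind several CON values.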
